A study of Mus musculus with 2 samples.

Results

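The histone lysine methyltransferases and demethylases are the enzymes that add methyl groups to histone lysines ("writers") or remove them ("erasers"). Members were the protein-coding genes whose symbol begins with Kmt, Kdm or Setd and a number, or is one of the named Prdm, Nsd, Suv39h, Ehmt and Setdb genes, Dot1l or Ash1l. This gave 58 genes of 21474 protein-coding genes in the tables, namely 27 writers (26 with a SET domain, and Dot1l), 13 PRDM genes and 18 erasers. The rule goes by name, so it leaves out the Polycomb H3K27 methyltransferases, and it takes in SET proteins whose known substrate is no histone. The rule itself uses no measured value.

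RNA came from the limbs of B6NCrl mouse embryos at embryonic day 12.5, pooled without regard to sex, with 10 ng of total RNA longer than 200 nt going into each library. Replicate 1 pooled 88 embryos and replicate 2 pooled 68. These 2 pools form the one group of the series. There is no other genotype, treatment or time, and forelimbs and hindlimbs are not told apart. Levels are given in TPM (a share of all transcripts, scaled for length by the authors), and the 2 libraries held 29810026 and 29938721 expected counts. The whole limb is a mixture of cell types, so fewer cells of a type and less RNA per cell cannot be told apart. All 6 listed mesenchyme markers and all 4 cartilage markers were detected. Neuron markers summed to 21.2 TPM in replicate 1 and 37.8 TPM in replicate 2, cartilage markers to 692 and 589 TPM.

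Writers use S-adenosylmethionine as the methyl donor, and all of them here except Dot1l are built on a SET or a related PR domain. Erasers fall into the flavin-dependent Kdm1 enzymes and the larger JmjC family, which needs iron and 2-oxoglutarate. Methylation of H3K4, H3K36 and H3K79 is known mainly from active genes, and that of H3K9 and H4K20 mainly from heterochromatin. H3K27 methylation is the mark of Polycomb repression, which restrains Hox genes in the limb bud.

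Nearly all of the family was expressed in the limb. Detection, taken as 1 TPM or more in each of the 2 libraries, was reached by 54 of the 58 members (93.1%), against 59.2% of all protein-coding genes. These were 27 of 27 writers, 10 of 13 PRDM genes and 17 of 18 erasers. A mean of at least 10 TPM was reached by 45 members (77.6%), against 41.0% of protein-coding genes. Among detected genes the members were not set apart by level, since their median was 21.1 TPM and that of all detected protein-coding genes was 21.9 TPM. The median over all members of a class was 26.5 TPM for writers, 4.86 TPM for PRDM genes and 40.4 TPM for erasers. When the 58 members were ordered by mean TPM, 23 of 57 neighbouring genes did not overlap in their ranges over the 2 libraries and 34 did. Within a class, 15 of 26 neighbouring writers, 10 of 12 neighbouring PRDM genes and 9 of 17 neighbouring erasers did not overlap.

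**Figure D1:**
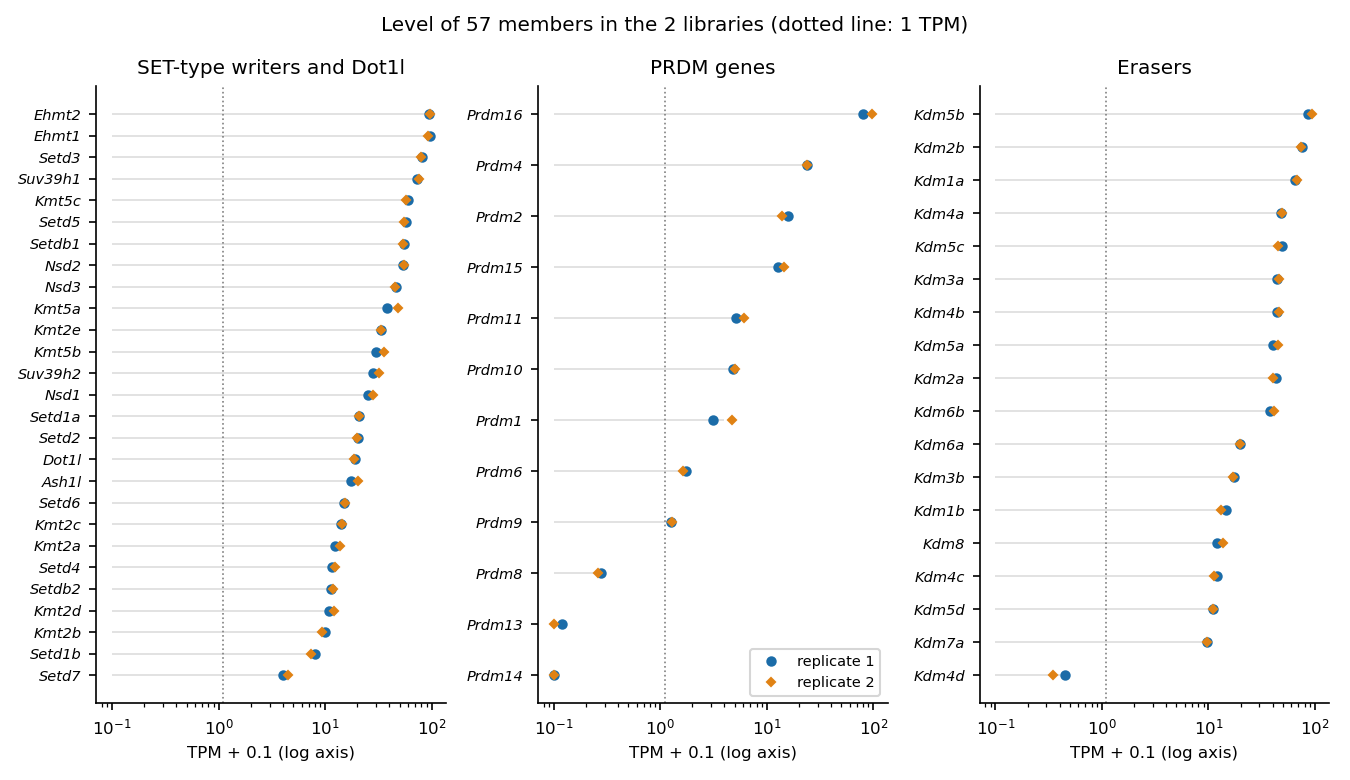
Level of 57 of the 58 members in replicate 1 (circles) and replicate 2 (diamonds), as TPM + 0.1 on a log axis, for writers, PRDM genes and erasers. Writers run from about 4.16 TPM (Setd7) to 95.2 TPM (Ehmt2), erasers lie near or above 10 TPM except Kdm4d at 0.300 TPM, and 3 PRDM genes lie left of the dotted line at 1 TPM.

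By the TPM of all transcripts, the highest writers were the H3K9 enzymes Ehmt2 (G9a) and Ehmt1 (GLP). These work as a heterodimer that places mono- and dimethylation. Ehmt2 (ENSMUSG00000013787.11, chr17:34898469-34914052) had 94.1 TPM in replicate 1 and 96.2 TPM in replicate 2. Ehmt1 had 96.3 and 93.0 TPM. The libraries disagreed on which of the 2 was higher, with a log2 ratio of Ehmt2 over Ehmt1 of 0.01 ± 0.06 (mean ± SD, n = 2 libraries, as for every ratio below). Setd3 came next at 80.2 and 79.4 TPM and did not overlap its neighbours. Setd3 is best known as the histidine methyltransferase of actin, not as a histone enzyme. Of its 50-base stretches, 16.4% occur in other genes of the tables, mostly in Gm14026, so part of its level depends on how shared reads were split.

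Among the other H3K9 writers, one paralog stood above the other in each pair. Suv39h1, an X-linked enzyme of pericentric H3K9 trimethylation, had 72.1 and 76.3 TPM, and its paralog Suv39h2 had 28.2 and 32.0 TPM. Setdb1, which silences retroelements together with Trim28, had 55.3 and 53.6 TPM, whereas Setdb2 had 11.3 and 11.8 TPM. The fold was 2.47 for Suv39h1 over Suv39h2 (log2 1.303 ± 0.07) and 4.69 for Setdb1 over Setdb2 (log2 2.23 ± 0.08). In neither pair did the ranges overlap. Opposite-strand exons of Gm14820 cover 14.6% of the exon bases of Suv39h1, and reads of the 2 genes cannot be told apart because the strand setting is not given.

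The H3K4 writers were the lowest group of the writers, with a median of 11.3 TPM over 7 genes against 64.3 TPM over 6 H3K9 writers. Setd1a, a catalytic subunit of the COMPASS complex that trimethylates H3K4 at promoters, led them at 20.5 TPM in both libraries, 2.69-fold above Setd1b at 7.92 and 7.20 TPM. The 4 MLL genes lay close together. Kmt2c and Kmt2d, which monomethylate H3K4 at enhancers, had 13.8 and 14.1 TPM (Kmt2c) and 10.6 and 12.04 TPM (Kmt2d). Kmt2a, which maintains Hox gene expression, had 12.2 and 13.7 TPM, and Kmt2b had 9.88 and 9.22 TPM. Setd7, which also methylates many proteins other than histones, was the lowest writer at 3.92 and 4.39 TPM.

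By mean TPM, the listed COMPASS and MLL partners had higher levels than the H3K4 catalytic subunits. In replicate 2, however, Ncoa6 (20.2 TPM) lay just below Setd1a (20.5 TPM). All 12 listed COMPASS and MLL partners were detected, with a median of 61.6 TPM and a range of 22.0 (Ncoa6) to 248 TPM (Psip1). Ash2l, a core subunit needed for activity, had 124 TPM in replicate 1 and 122 TPM in replicate 2. Wdr5, which holds the core together, had 59.3 and 62.0 TPM. The 6 listed readers and partners of H3K9 methylation had a median of 161 TPM, among them the HP1 gene Cbx3 with 503 and 514 TPM and Trim28 with 442 and 422 TPM. Not all of them stood above the H3K9 writers. Atf7ip (37.3 and 31.5 TPM) and Wiz (35.1 and 31.3 TPM) were below Setdb1, Ehmt1 and Ehmt2.

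The H3K36 writers split into the dimethylating Nsd genes and Ash1l, and Setd2, the enzyme of trimethylation in transcribed gene bodies. Nsd2 had 53.4 and 54.8 TPM, Nsd3 had 46.0 and 45.3 TPM and Nsd1 had 25.1 and 28.0 TPM. Nsd2 was 2.04-fold above Nsd1 (log2 1.03 ± 0.08) and Nsd3 1.72-fold above Nsd1 (log2 0.78 ± 0.13). Setd2 had 20.4 and 19.8 TPM, and Ash1l, a trithorax-group gene, 17.2 and 20.1 TPM.

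All 3 H4K20 enzymes were present at middle levels. Kmt5c, which makes the trimethyl form of heterochromatin, had 60.3 and 56.7 TPM and was 1.80-fold above Kmt5b (29.7 and 35.4 TPM). Kmt5a, the monomethyltransferase of the cell cycle, had 38.1 TPM in replicate 1 and 47.7 TPM in replicate 2. It was above Kmt5b in both libraries (log2 0.39 ± 0.05), and the ranges of the 3 genes did not overlap. Dot1l, the H3K79 enzyme without a SET domain, had 18.9 and 18.5 TPM. Its listed partners Mllt1 (74.8 and 74.7 TPM), Mllt3 (51.8 and 52.4 TPM) and Mllt10 (55.2 and 64.7 TPM) were higher and Mllt6 (2.31 and 2.41 TPM) was lower.

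Of the SET proteins without an assigned histone lysine, Setd5 had 57.6 and 54.4 TPM and Kmt2e 33.1 and 33.6 TPM. Setd6, known for methylating the NF-kappaB subunit RelA, had 14.8 and 15.3 TPM. Setd4 had 11.4 and 12.3 TPM.

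PRDM genes covered the widest range of the 3 classes. Prdm16 (chr4:154316125-154636873, minus strand), a zinc finger gene known from brown fat and craniofacial development, had 80.0 TPM in replicate 1 and 96.6 TPM in replicate 2. It was the only PRDM gene above 25 TPM, followed by Prdm4 (24.0 and 23.5 TPM). Prdm16 was 22.9-fold above Prdm1 (log2 4.52 ± 0.24). Prdm2 (RIZ), a gene with reported H3K9 activity, had 15.7 TPM in replicate 1 and 13.7 TPM in replicate 2, and Prdm15 had 12.7 and 14.3 TPM. Lower still were Prdm11 (5.00 and 6.05 TPM), Prdm10 (4.75 and 4.97 TPM), Prdm1 (3.01 and 4.63 TPM) and the smooth muscle gene Prdm6 (1.63 and 1.52 TPM). Mecom, the paralog closest to Prdm16, stands outside the naming rule and had 154 and 157 TPM.

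The PRDM genes of germ cells and neural tissue were at or near the bottom. Prdm9, which sets the sites of meiotic recombination, had 1.15 and 1.18 TPM from 57 and 62 counts. Prdm14, a gene of pluripotency and germ cells, had 0 counts in both libraries, which allows up to 0.101 and 0.1002 CPM (counts scaled to the library total) by a floor of 3 counts. Germ cell markers were also low, with a summed level of 0.530 TPM in replicate 1 and 0.650 TPM in replicate 2 over 3 genes. Prdm13, a neural gene, had 1 count in replicate 1 and 0 in replicate 2. Prdm8, another neural gene, had 10 and 9 counts (0.180 and 0.160 TPM), and 29.1% of its exon bases are covered on the opposite strand by A730035I17Rik.

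Among erasers the 3 highest genes did not overlap each other. Kdm5b (JARID1B, chr1:134560171-134635285), which removes H3K4 di- and trimethylation, had 86.2 and 93.1 TPM. Kdm2b (chr5:122870665-122989823, minus strand), a CXXC protein that brings the Polycomb complex PRC1.1 to CpG islands, had 75.0 and 74.3 TPM. Kdm1a (LSD1), the flavin-dependent eraser of H3K4 mono- and dimethylation, had 64.6 and 67.3 TPM. From Kdm4a (47.9 and 49.2 TPM) down to Kdm6b (37.4 and 41.4 TPM), 7 erasers formed a run in which every neighbour overlapped the next. Kdm6a followed at 19.5 and 19.8 TPM, clear of the run.

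The H3K4 erasers spanned 10.9 to 89.7 TPM, and the H3K4 writers 4.16 to 20.5 TPM. Kdm1a was 4.804-fold above its paralog Kdm1b (14.4 and 13.0 TPM; log2 2.26 ± 0.14). Kdm5b was 2.10-fold above Kdm5a (40.1 and 45.1 TPM). The X-linked Kdm5c had 49.0 and 44.6 TPM, and its Y-linked counterpart Kdm5d had 10.9 TPM in replicate 1 and 11.0 TPM in replicate 2, a 4.24-fold difference (log2 2.08 ± 0.10). Both pools are of mixed sex, so only some of the embryos carry Kdm5d. Other sex-linked genes held the same level in both pools, with Uty at 15.5 and 15.8 TPM and Xist at 24.0 and 24.1 TPM. The 8 listed partners of Kdm1a in the CoREST complex were all detected, from Gse1 (6.06 and 6.79 TPM) to Hdac2 (314 and 309 TPM), and Rcor2 (42.0 and 43.3 TPM) stood above Rcor1 (10.0 and 11.0 TPM).

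Because Kdm5c and Kdm5d are counterparts on the sex chromosomes that differ in level, their RefSeq promoter windows are shown (GRCm38.p6, 250 bases before to 50 after the start, plus strand), with each CpG in capitals.
Kdm5c (chrX:152232977-152233276): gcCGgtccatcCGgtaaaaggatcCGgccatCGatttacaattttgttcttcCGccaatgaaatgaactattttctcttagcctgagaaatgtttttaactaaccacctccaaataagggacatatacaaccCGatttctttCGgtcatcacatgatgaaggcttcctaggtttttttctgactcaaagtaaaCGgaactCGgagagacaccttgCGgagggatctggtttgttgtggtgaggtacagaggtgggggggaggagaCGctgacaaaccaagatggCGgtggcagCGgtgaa
Kdm5d (chrY:897538-897837): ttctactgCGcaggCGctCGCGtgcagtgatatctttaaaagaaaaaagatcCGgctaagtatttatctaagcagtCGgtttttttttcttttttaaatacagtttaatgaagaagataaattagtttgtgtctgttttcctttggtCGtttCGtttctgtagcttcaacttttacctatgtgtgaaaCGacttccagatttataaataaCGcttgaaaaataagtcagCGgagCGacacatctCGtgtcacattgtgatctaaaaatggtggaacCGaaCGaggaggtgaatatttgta
The Kdm5c window lies 207 bases from the GENCODE start of its longest coding transcript and that of Kdm5d 2 bases. The Kdm5c window held 13 CpG at 47.0% G and C, and the Kdm5d window 15 CpG at 36.7%. Neither met the limits for a CpG-rich window used here (at least 55% G and C and an observed over expected CpG ratio of at least 0.6), since both were below the first limit.

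The H3K9 erasers of the Kdm3 and Kdm4 families were led by Kdm4a (47.9 and 49.2 TPM), Kdm3a (44.3 and 46.0 TPM) and Kdm4b (43.5 and 45.6 TPM). Kdm4b lay below Kdm4a by a log2 ratio of only -0.12 ± 0.02, whereas Kdm4c (11.9 and 11.3 TPM) was 4.17-fold below Kdm4a (log2 -2.06 ± 0.08). Kdm3b, at 17.2 and 17.1 TPM, was 2.63-fold below Kdm3a (log2 -1.39 ± 0.05). Opposite-strand exons of Gm26538 cover 24.6% of the exon bases of Kdm3b. Kdm4d was the only eraser not detected, with 14.9 and 12 counts (0.350 and 0.250 TPM), and 10.2% of its 50-base stretches also occur in Kdm4dl.

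The H3K27 erasers oppose Polycomb. Kdm6b (JMJD3) had 37.4 and 41.4 TPM and the X-linked Kdm6a (UTX) 19.5 and 19.8 TPM, so that Kdm6a was 2.00-fold below Kdm6b (log2 -1.0 ± 0.09). Kdm7a had 9.57 and 9.49 TPM. Kdm8 (JMJD5), whose activity is debated, had 11.9 and 13.7 TPM.

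Summed over all members of a class, writers had 942 TPM in replicate 1 and 965 TPM in replicate 2, and erasers 627 and 642 TPM. The ratio of writers over erasers was 1.503 ± 0.00102. PRDM genes added 169 and 189 TPM. A summed mRNA level is not a measure of enzyme activity, and many members have several substrates.

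The balance differed by lysine. For H3K4, 7 writers summed to 78.8 and 81.2 TPM and 6 erasers to 265 and 274 TPM, a writer over eraser ratio of 0.297 ± 0.000427. For H3K9, 6 writers summed to 357 and 363 TPM and 6 erasers to 165 and 169 TPM, a ratio of 2.15 ± 0.0135. For H3K36, 5 writers summed to 162 and 168 TPM and 2 erasers to 118 and 114 TPM, a ratio of 1.42 ± 0.0709. In both libraries the ratio was below 1 for H3K4 and above 1 for H3K9 and H3K36. Kdm4a, Kdm4b and Kdm4c act on H3K9 and H3K36, whereas Kdm4d is known for H3K9 alone, and all were counted under H3K9. With the 4 Kdm4 genes counted under H3K36 instead, the H3K36 ratio turned to 0.746 and the H3K9 ratio became 5.78. The H3K27 erasers summed to 66.5 and 70.7 TPM, with no H3K27 writer among the members. With 2 libraries an exact sign-flip test cannot go below p = 0.5, so these ratios and the pair ratios carry no test.

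**Figure D2:**
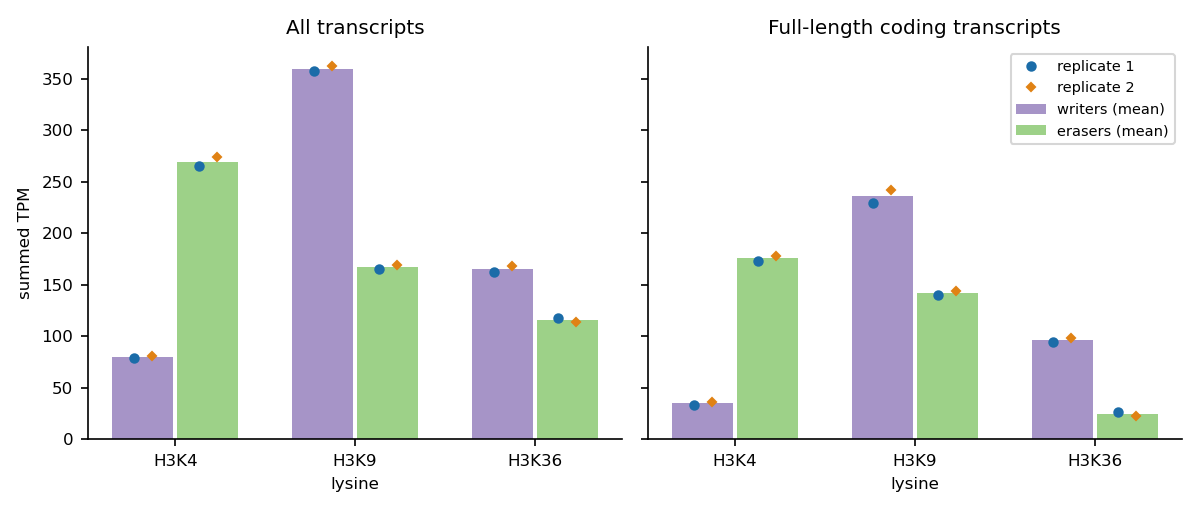
Summed TPM of writers and of erasers of H3K4, H3K9 and H3K36 over all transcripts (left) and over full-length coding transcripts only (right). Bars are means and points the 2 libraries. H3K4 erasers stand above H3K4 writers in both panels, and the H3K36 erasers drop to 25.9 TPM in replicate 1 and 22.5 TPM in replicate 2 in the right panel.

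In several members a large part of the TPM was assigned to transcripts other than the annotated full-length coding ones. Full-length coding was defined as a protein-coding transcript whose coding length is at least 90% of the longest of its gene, in GENCODE M21. Of 50 members that averaged 1 TPM or more and had several transcripts, such transcripts held 50% or more of the TPM in both libraries for 33 (66.0%), against 71.3% of 9460 protein-coding genes. They held under 50% in both libraries for 17 members (34%), against 23.9%. The median full-length share over the members was 62.6% in replicate 1 and 67.1% in replicate 2, beside 78.5% and 77.3% over those genes. TPM is scaled for length, so short transcripts weigh more in it than in counts. Of the expected counts, full-length transcripts held 50% or more in both libraries for 40 members (80%), against 82.5% of the same protein-coding genes, and under 50% for 9 members (18%), against 14.5%. The median share of counts was 84.5% and 84.0% over the members, beside 90.7% and 89.95% over those genes. By class the medians of the TPM share were 58.9% and 64.3% for writers, 46.6% and 43.8% for PRDM genes, and 81.4% in both libraries for erasers. Retained-intron transcripts held at least 25% of the TPM in both libraries for 9 members (18%), against 11.8%. The library was made from total RNA, which includes unspliced RNA, and its part in these shares was not tested.

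**Figure D3:**
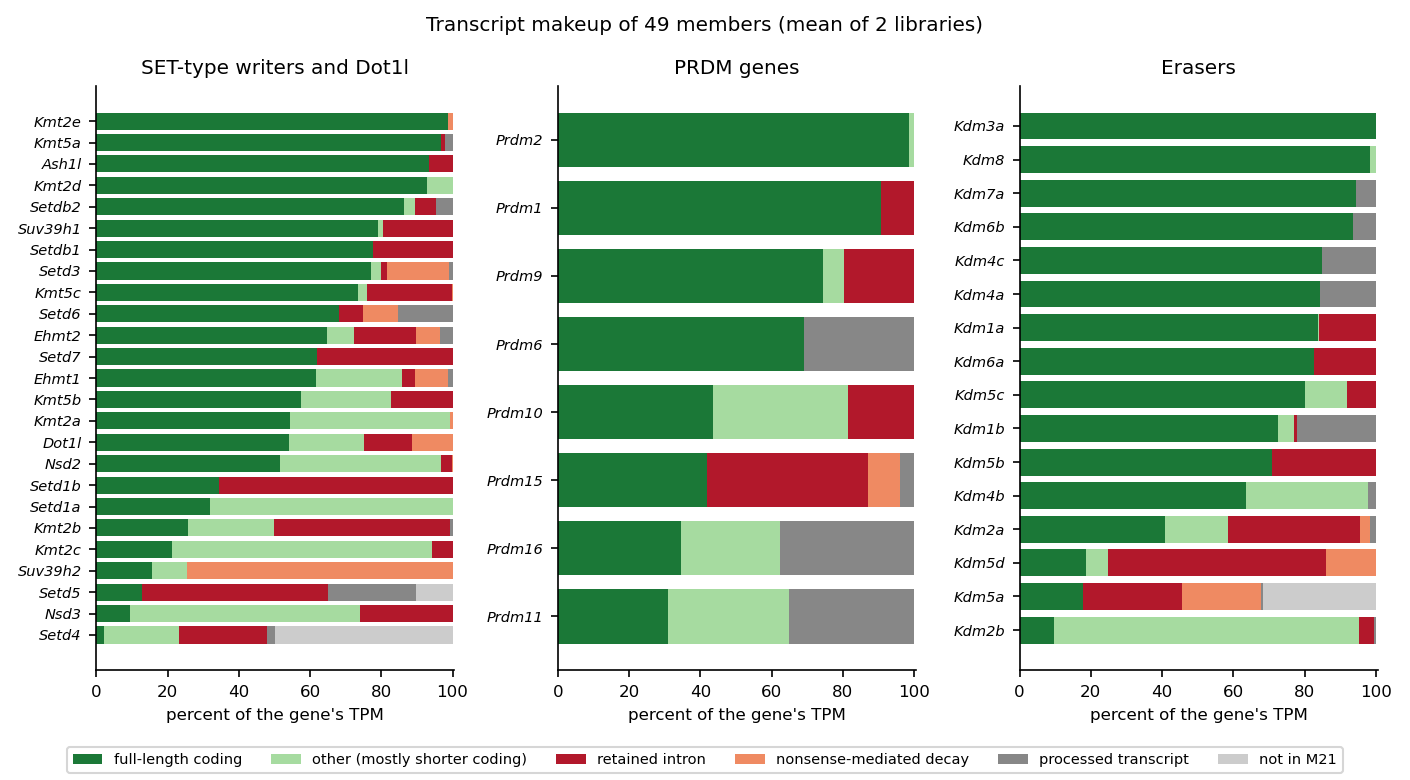
Share of each gene's TPM by annotated transcript type, as the mean of the 2 libraries, for 49 of the 50 members with at least 2 transcripts and a mean of at least 1 TPM, ordered by full-length coding share. Kmt2e and Kdm3a are nearly all full-length coding, whereas Kdm2b, Nsd3, Setd4, Setd5 and Suv39h2 hold little of it.

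Kdm2b was the clearest case of a short form. The transcript Kdm2b-201 held 86.4% of the gene's TPM in replicate 1 and 82.9% in replicate 2, at 64.8 and 61.6 TPM. The authors' quantifier gave it an interval of 61.0 to 65.7 TPM in replicate 1 and 57.7 to 62.2 TPM in replicate 2. Kdm2b-201 begins inside the gene and has its own start codon and 776 codons, against 1309 in the longest form, whose stop codon it shares. A short form of this protein that lacks the JmjC domain and keeps the CXXC domain is known. A search for the iron-binding motif of the JmjC domain found none in Kdm2b-201, and the transcripts that hold the motif had 10.5% and 9.97% of the TPM (7.89 and 7.41 TPM). By expected counts, full-length Kdm2b held 14.1% and 13.6%. The RefSeq windows of a long and of the short start are shown because the 2 kinds of transcript begin 88749 bases apart on chromosome 5 (GRCm38.p6, minus strand, 5′ to 3′), with each CpG in capitals. The long window is that of Kdm2b-202, listed at 0 TPM in both libraries. The full-length level came from Kdm2b-204 (3.79 and 4.07 TPM), which begins 207 bases before that start, and Kdm2b-203 (3.70 and 2.89 TPM), which begins 566 bases after it. Use of the starts was not measured.
Kdm2b long start (chr5:122989050-122989349): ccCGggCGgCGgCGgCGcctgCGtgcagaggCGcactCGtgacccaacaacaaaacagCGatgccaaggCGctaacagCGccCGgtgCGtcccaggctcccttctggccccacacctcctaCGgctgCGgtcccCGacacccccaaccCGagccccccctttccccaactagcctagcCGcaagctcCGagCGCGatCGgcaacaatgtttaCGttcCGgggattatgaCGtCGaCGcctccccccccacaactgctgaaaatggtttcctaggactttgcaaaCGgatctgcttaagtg
Kdm2b short start (chr5:122900301-122900600): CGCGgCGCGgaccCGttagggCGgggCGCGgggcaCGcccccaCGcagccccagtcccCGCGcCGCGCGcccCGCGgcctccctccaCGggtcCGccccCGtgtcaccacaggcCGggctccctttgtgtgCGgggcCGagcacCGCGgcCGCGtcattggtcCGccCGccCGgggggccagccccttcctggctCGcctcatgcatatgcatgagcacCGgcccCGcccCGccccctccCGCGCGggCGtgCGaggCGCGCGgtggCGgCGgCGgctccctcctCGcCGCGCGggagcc
Both were CpG-rich. The long window held 28 CpG at 63.7% G and C, and the short window 49 CpG at 81.7%.

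The paralog Kdm2a also had a large share outside the whole enzyme. Its transcripts with the JmjC motif held 43.8% and 39.5% of the TPM, and retained-intron transcripts 33.2% and 40.6%. In TPM of full-length transcripts, Kdm2b had 7.49 and 6.96 and Kdm2a had 18.4 and 15.5. The order of the pair was thus opposite to that of the gene totals, with a log2 ratio of Kdm2b over Kdm2a of -1.21 ± 0.10 for full-length transcripts and 0.85 ± 0.07 for all.

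Nsd3 showed the same kind of split among the writers. A short NSD3 protein without the SET domain is known in human cells. In the limb, Nsd3-208 (655 codons, against 1446 in the longest form, and no SET motif found) held 43.8% and 42.0% of the TPM. Transcripts with the SET motif held 10.2% and 8.83%, or 4.70 and 4.00 TPM. By full-length transcripts Nsd3 lay 5.99-fold below Nsd1 (log2 -2.58 ± 0.27), where the gene totals had put it above. Nsd2 and Nsd1 were no longer separated (27.98 and 27.8 TPM for Nsd2, 25.1 and 28.0 TPM for Nsd1). Nsd1 has 1 transcript in the tables, and Nsd2 and Nsd3 have 11 each, so all TPM of Nsd1 counted as full-length. The part of this unequal annotation in the changed orders was not tested.

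Other members had a low TPM of full-length transcripts through other annotated transcript types or through transcripts outside M21. Suv39h2-204, annotated as a target of nonsense-mediated decay, held 76.2% and 72.7% of the TPM of Suv39h2. This left full-length Suv39h2 at 4.63 and 4.78 TPM and Suv39h1 12.2-fold above it. Over transcripts with the SET motif, Suv39h1 was 7.58-fold above Suv39h2. The retained-intron transcript Setd1b-202 held 59.9% and 48.6% of the TPM of Setd1b, although full-length forms held 51.7% and 60.4% of its counts. A retained-intron fragment of 571 nt, Kmt2b-207, held 43.8% and 39.8% of the TPM of Kmt2b. This fragment had only 38.3 and 32.7 of the gene's 689 and 719 counts. Full-length forms held 49.1% and 59.4% of the counts of Kmt2b. Setd1a-203, whose annotated coding sequence is incomplete, held 56.9% and 56.2% of the TPM of Setd1a, although full-length forms held 82.1% and 83.6% of its counts. Retained introns also took 64.2% and 58.3% of Kdm5d, so that full-length Kdm5d stood at 1.81 and 2.29 TPM and Kdm5c 17.6-fold above it. Over transcripts with the JmjC motif, Kdm5c was 12.9-fold above Kdm5d. The top transcripts of Kdm5a and Setd4 are not in the M21 annotation, so their coding type was not known and they were not counted as full-length. Transcripts outside M21 held 38.0% and 25.03% of Kdm5a, whose full-length level was 5.42 TPM in replicate 1 and 9.87 TPM in replicate 2. Kdm5b stood 8.56-fold above Kdm5a by full-length transcripts and 3.74-fold by transcripts with the JmjC motif. Both folds leave out the Kdm5a transcript outside M21, which is 10969 nt long, against 10946 nt for the full-length Kdm5a-201. The deposited intervals of these 2 transcripts overlapped, at 3.32 to 17.3 and 2.74 to 16.8 TPM in replicate 1. In replicate 2 they were 1.84 to 19.6 and 0.939 to 18.6 TPM, so the split between the 2 is uncertain.

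Prdm16 was spread over 13 transcripts. The most abundant, Prdm16-207, is 757 nt long with an incomplete coding sequence and held 28.0% and 27.5% of the TPM, and full-length forms held 35.1% and 34.3% of the TPM but 89.2% and 88.1% of the counts. Full-length Prdm16 therefore had 28.1 TPM in replicate 1 and 33.1 TPM in replicate 2, and its fold over Prdm1 was 8.79 in place of 22.9. At the other end, Kmt2d was nearly all full-length (89.6% and 96.2%), whereas Kmt2c was 22.2% and 20.5% full-length. The full-length order of Kmt2d over Kmt2c was opposite to that of the gene totals, at a log2 ratio of 1.79 ± 0.25 against -0.30 ± 0.10. That order rests on how Kmt2c transcripts with an incomplete annotated coding sequence are counted, since transcripts with the SET motif held 73.0% and 70.2% of the TPM of Kmt2c. In TPM of such transcripts, Kmt2d had 9.62 and 11.6 and Kmt2c had 10.1 and 9.92, and the libraries disagreed on the order (log2 0.08 ± 0.20). The deposited interval of Kmt2d-201, the major transcript, ran from 3.17 to 6.47 TPM in replicate 1 and from 2.80 to 9.33 TPM in replicate 2. Kmt2d-202 has the same coding length of 16764 nt.

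**Figure D4:**
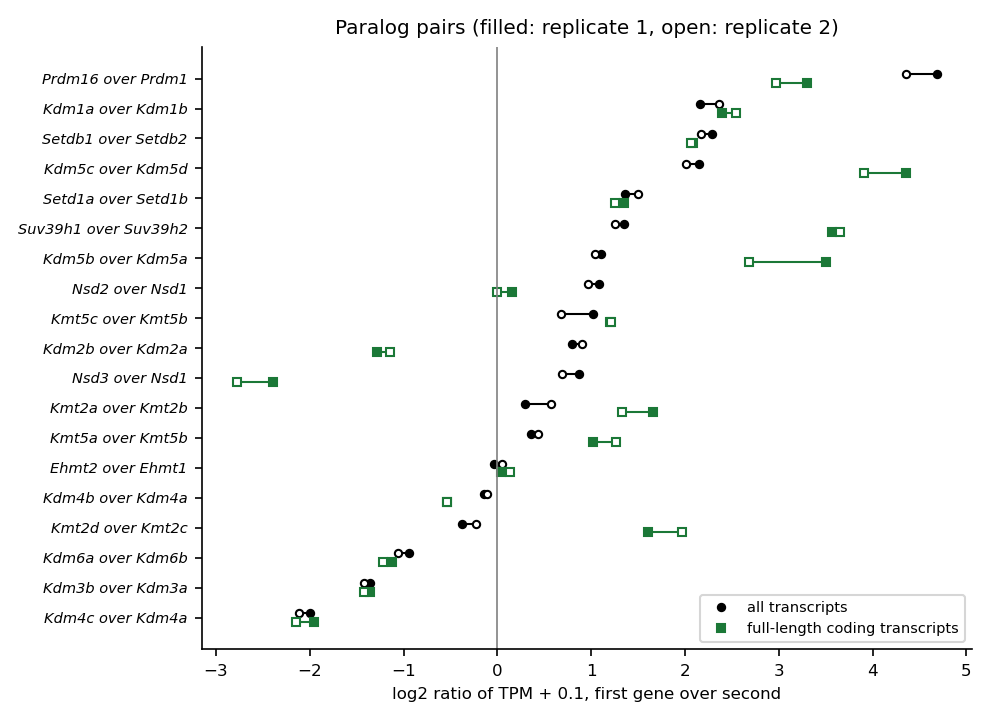
Log2 ratio of the first over the second gene of 19 of the 20 paralog pairs, from all transcripts (black circles) and from full-length coding transcripts (green squares), with a pseudocount of 0.1 TPM. Filled symbols are replicate 1 and open symbols replicate 2, and Kdm2b over Kdm2a, Nsd3 over Nsd1 and Kmt2d over Kmt2c lie on opposite sides of 0.

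Over the 20 pairs, 19 had the same direction in both libraries with ranges that did not overlap, and 12 were at least 2-fold apart. Over full-length transcripts, 19 pairs again had the same direction in both libraries, and 3 pairs (Kmt2d over Kmt2c, Nsd3 over Nsd1 and Kdm2b over Kdm2a) pointed the other way. For 2 of these 3, Nsd3 over Nsd1 and Kdm2b over Kdm2a, the same held over transcripts with the catalytic motif (log2 -2.58 ± 0.27 and -1.16 ± 0.12). For Nsd3 and Nsd1 the TPM of full-length transcripts and of those with the motif were identical, so the motif adds no support there. Kmt2a over Kmt2b moved to 2.83-fold over full-length transcripts (log2 1.498 ± 0.23, against 0.43 over all) and Kmt5a over Kmt5b to 2.21-fold (log2 1.14 ± 0.17). Over transcripts with the catalytic motif these folds were 1.46 (log2 0.55 ± 0.03) and 1.70 (log2 0.76 ± 0.10). Kmt2b-206, whose annotated coding sequence is incomplete, holds the motif but was not counted as full-length. The class sums fell to 577 and 607 TPM for writers, 90.4 and 94.7 TPM for PRDM genes, and 411 and 421 TPM for erasers when only full-length transcripts were added up. The H3K4 ratio of writers over erasers became 0.197, the H3K9 ratio 1.66 and the H3K36 ratio 4.01. The order of the highest writers also changed over full-length transcripts. Setd3 (62.3 and 60.8 TPM) lay above Ehmt1 (56.6 and 59.8 TPM) in both libraries. Against Ehmt2 (58.1 and 65.5 TPM) Setd3 was higher in replicate 1 only.

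Promoters of the writers were mostly rich in CpG, and those of PRDM genes and erasers less often. A RefSeq window was matched to 42 of the 58 members, the nearest to the start of the longest coding transcript. By the limits above, 31 of the 42 windows (73.8%) were CpG-rich, among them 19 of 20 writers, 5 of 9 PRDM genes and 7 of 13 erasers. The share was 59.8% over 12779 windows of detected protein-coding genes and 30.3% over all 32851 windows, several windows of a gene included. The class shares were 95% for writers, 55.6% for PRDM genes and 53.8% for erasers. Those of PRDM genes and erasers include Prdm8, Prdm13 and Kdm4d, which were not detected and whose windows were not CpG-rich. The shares of these classes are therefore not set against that of detected genes. Over the 39 windows of detected members, 31 (79.5%) were CpG-rich. Setd5 was the writer below the limits, with 1 CpG in the window nearest to the start of its longest coding transcript. That window (chr6:113104685-113104984) does not lie at the 5′ end of the gene, at chr6:113077365. Some windows lay far from the transcript start, among them those of Prdm10 (1680 bases), Setd1a (719 bases) and Prdm11 (594 bases). Of motifs sought on both strands, GGGCGG was found in 61.9% of the members' windows and 63.0% of windows of detected genes (35.7% of all windows). CCAAT was found in 42.9% and 37.9% (37.4% of all), TATAAA in 4.76% and 6.97% (13.6% of all), and CCGGAAG in 16.7% and 16.9% (8.86% of all). The NRF1 motif was found in 14.3% of the members' windows and 9.74% of windows of detected genes (4.60% of all). Over the 39 windows of detected members these shares were 64.1%, 38.5%, 5.13%, 15.4% and 15.4%, in the same order. These matches describe letters in the windows and say nothing on binding.

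The members differed between the replicate libraries mostly by small folds. An exact conditional binomial test of the expected counts, with Benjamini-Hochberg adjustment over 18580 genes, compared replicate 1 with replicate 2. It covers counting error only and compares these 2 pools. It called 17 of 56 tested members (30.4%), against 16.0% of all genes tested and 21.3% of genes with at least 100 counts. By direction, 6 members were higher in replicate 1 (9.06% of all genes tested) and 11 higher in replicate 2 (6.95%). The size was small, with a median absolute log2 difference of 0.07 over the members, 0.12 over all genes tested and 0.09 over genes of at least 100 counts. These sets of genes were not matched to the members in depth, and the spread narrows with depth. Over all genes tested, the 5th to 95th percentile ran from -0.72 to 0.75 where the median count was 52.5. It ran from -0.16 to 0.21 where the median count was 1678.5. At a fold of at least 1.2, 2 members were called (3.57%), against 6.73% of all genes tested. Both were higher in replicate 2, as were 3.04% of all genes tested at that fold. At a fold of at least 2 none was called, against 1.68%. By edgeR's exact test, 0 of 56 members passed after adjustment, against 0.732% of all genes tested. Its spread was estimated from both libraries as one group, so the difference under test entered that spread. The test therefore leans to few calls and cannot show that members are alike. By the same test 3 members (Prdm1, Kmt2d and Prdm16) were under an unadjusted p of 0.05, against 4.16% of all genes.

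The member with the largest difference was Prdm1 (Blimp1), a transcriptional repressor needed for plasma cells and for the specification of primordial germ cells. It had 255 counts (3.01 TPM) in replicate 1 and 390 counts (4.63 TPM) in replicate 2, a fold of 1.51 higher in replicate 2 (log2 of replicate 1 over replicate 2 -0.59, adjusted p = 9.2e-06 by the exact binomial test). Kmt2d had 3535 and 4311 counts, 1.202-fold higher in replicate 2 (log2 -0.27, adjusted p = 4.28e-14 by the exact binomial test). Prdm16 had 4975 and 5978 counts (log2 -0.24, adjusted p = 1.19e-16 by the exact binomial test). Also higher in replicate 2 were Ash1l, Nsd1, Kmt5a, Kmt5b, Kdm6b, Kdm5b, Ehmt2 and Suv39h2, and higher in replicate 1 were Prdm2, Kdm5c, Kdm2a, Setd5, Dot1l and Setdb1. Cell type markers moved as well. Of 5 neuron markers 4 were called higher in replicate 2, with a median log2 ratio of -1.32, and of 4 cartilage markers 3 were called higher in replicate 1, with a median of 0.66. Of 6 limb mesenchyme markers 4 were called. Among these the forelimb gene Tbx5 was higher in replicate 1 (2531 and 1747 counts, log2 0.56, adjusted p = 2.62e-33 by the exact binomial test) and the hindlimb gene Pitx1 higher in replicate 2 (5626 and 6964 counts, log2 -0.29, adjusted p = 1.72e-26 by the exact binomial test). Of 3 muscle, 3 ectoderm and 3 red cell markers, 2 of each were called higher in replicate 1, as was 1 of 3 endothelium markers and 0 of 3 macrophage markers. The part of cell types, or of forelimb and hindlimb, in the differences of members was not tested. The male and female marker lists held no called gene.

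**Figure D5:**
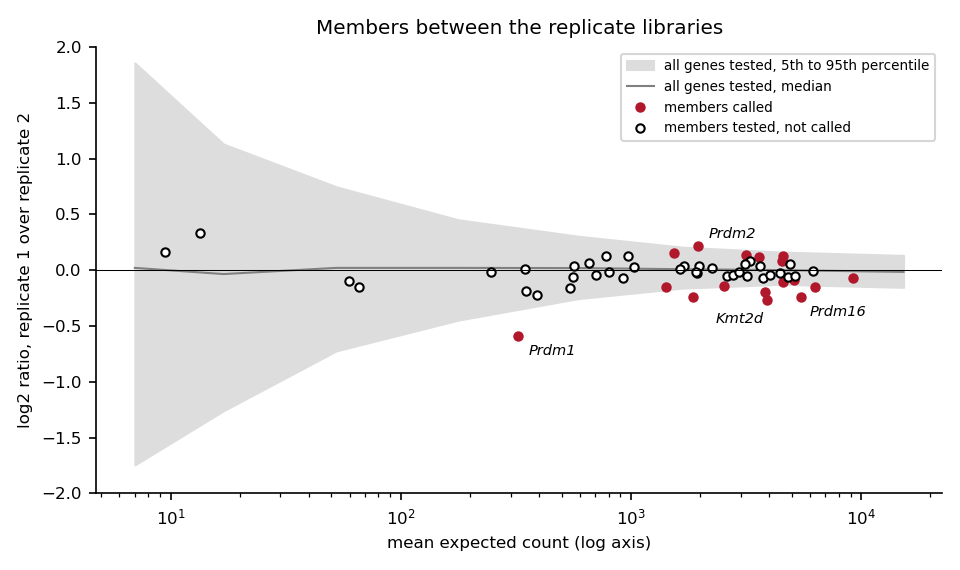
Log2 ratio of replicate 1 over replicate 2 against the mean expected count for 55 of the 56 members tested. Red points are the 17 members called, open points the rest, and the grey band spans the 5th to 95th percentile of all genes tested at that depth. Prdm1 lies lowest at -0.59.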

How the data were processed

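Total RNA-seq of 2 replicate pools of limb was analysed from gene and transcript tables. The deposited expected counts are estimated counts, with shared reads split and no values rounded, per the file headers, and the deposited TPM values are scaled by the authors over all rows, spike-ins included. For each transcript, the deposited percent columns hold its part of the TPM of its gene, as the authors computed it. The assembly was mm10 with GENCODE M4, per the text deposited with the samples. Aligner and quantifier were not given in the sources used here, nor was the strand setting. Extraction used mirVana reagents and a manual of a SMARTer low-input kit is linked, per the labels' protocols.

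Symbols, types and coding lengths came from GENCODE M21 on the same assembly, and 42462 of 43346 Ensembl genes matched. Spike-ins and numeric identifiers (3.28% and 2.30% of counts in replicates 1 and 2) were left out of tests. The pseudocount of log ratios was 0.1 TPM. A quasi-likelihood fit by edgeR needs more than the 1 group at hand and was not possible. Counts were rounded and libraries compared by a two-sided exact binomial test, conditional on a gene's summed count, which had to be at least 10, and called at an adjusted p under 0.05. It covers counting error only, as do floors. The pools are biological replicates by their labels, and their counts differed beyond sampling noise (chi-square over 16995 genes, 6.61 per degree of freedom), so they are distinct libraries.

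Members, roles, pairs and lists were chosen with earlier results of these data known. The text names the 3 highest and the lowest of each class, every gene of the pairs, members called at a fold of at least 1.2 and members under 10 counts in a library, except that 1 PRDM gene and its pair are counted but not reported here. The other members are named for completeness, and listed partner or marker genes where a result touches them. Catalytic motifs were sought in coding sequences translated from GENCODE M21: the SET motif was found in the longest form of 21 of 27 writers and 0 of 13 PRDM genes, and the JmjC iron-binding motif in 15 of 15 erasers searched. Alternatives changed the unit, filters, scaling, pseudocount and assignment of Kdm4 genes, and left out each replicate. Restricting sums and pairs to full-length transcripts or pairs to those with the motif, taking shares of counts, and counting PRDM genes as writers were chosen after seeing the data. Tools were Python 3.11.15, numpy 2.4.6, pandas 2.3.3, scipy 1.17.1, Biopython 1.88, matplotlib 3.10.9, R 4.3.3, edgeR 4.0.16 and DESeq2 1.42.0.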

Additional observations from a re-analysis of the deposited data

How the results depend on the processing

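The number of members detected ran from 49 to 55 under the alternatives. With posterior mean TPM, 19 of 20 pairs had the same direction in both libraries. A pseudocount cannot change the direction of a pair, so the 19 pairs under each pseudocount add no support. Leaving out a replicate set the other one against a mean that contains it, so those 19 or 20 pairs add little. Ehmt2 over Ehmt1 turned to a log2 ratio of -0.0325 without replicate 2 and was 0.0480 without replicate 1. Posterior mean TPM gave writer over eraser ratios of 1.502 over all lysines, 0.305 for H3K4, 2.13 for H3K9 and 1.35 for H3K36. Rescaling over protein-coding genes gave sums of 1153 TPM for writers and 767 TPM for erasers. With the Kdm4 genes under H3K36, the ratio was 5.78 for H3K9 and 0.746 for H3K36, now below 1. Counting PRDM genes as writers, chosen after seeing the data, gave 1133 TPM and a ratio of 1.79. Full-length coding transcripts alone, also chosen after seeing the data, gave 592 TPM for writers, 416 TPM for erasers and ratios of 1.42 over all lysines, 0.197 for H3K4, 1.66 for H3K9 and 4.01 for H3K36. They turned Kmt2d over Kmt2c to 1.79, Nsd3 over Nsd1 to -2.58 and Kdm2b over Kdm2a to -1.21. Transcripts with the catalytic motif alone, chosen after seeing the data too, turned them to 0.0779, -2.58 and -1.16. In shares of expected counts rather than TPM, also chosen after seeing the data, 9 rather than 17 members were under 50% full-length in both libraries. The cause was not tested. Members called between the libraries numbered 16 or 17 under other scalings and filters (11.3% to 21.3% of all genes), against 0 higher in replicate 1, 0 higher in replicate 2 and 0 in all when a fold of at least 2 was added or by edgeR's exact test (0.732% of all genes), which had an unadjusted p under 0.05 for 3 members and 4.16% of all genes. Without replicate 1 or 2, 37 and 38 of 50 members had a full-length major transcript, against 36 with both, and the library comparison cannot be made. No paired analysis was possible because the series has 1 group.

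Precision is limited by 2 libraries, by transcripts estimated from short reads and by few counts for Prdm6, Prdm8, Prdm9, Prdm13, Prdm14 and Kdm4d.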

Other observations

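Related SET and JmjC proteins whose names fall outside the rule were present at levels like those of the members. Of 14 listed genes, 13 were detected, with a median of 18.1 TPM. After Mecom, the highest was Smyd2, a methyltransferase of histones and of p53, at 68.7 TPM in replicate 1 and 63.2 TPM in replicate 2. Smyd5 followed at 47.2 and 52.9 TPM and the JmjC gene Jmjd1c at 35.9 and 39.9 TPM. Smyd1, the heart and skeletal muscle member of its family, had 4.29 and 4.32 TPM. The JmjC genes Phf8 (15.3 and 16.2 TPM) and Phf2 (9.07 and 8.72 TPM) and the ribosomal oxygenase genes Riox1 (18.03 and 18.3 TPM) and Riox2 (27.2 and 25.2 TPM) were all detected. Hr, the hairless gene of skin, was not, at 0.880 and 0.750 TPM. None of the 14 was called between the libraries by the exact binomial test, against 16.0% of all genes tested and 21.3% of genes with at least 100 counts. A list of 14 genes is too short to set it apart from those shares.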
